A study of Mus musculus with 34 samples.

Results

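The data were gene expression counts from NaJa-F, a mouse colorectal cancer cell line, at day 1 and day 5 of continuous treatment with the BRAF inhibitor encorafenib. The 5 libraries were those titled for NaJa-F, encorafenib and day 5 (2 libraries) or day 1 (3 libraries), out of 34 libraries in the series, and all 14107 genes of the count table were tested. NaJa-F cells were recovered by peritoneal lavage from a single C57BL/6N recipient of colon organoids. Their genotype is given as VillinCreERT2::BrafV600E/+::Trp53R172H::APCdel, and the villin promoter that drove the recombinase confines it to the intestinal epithelium. The line is 1 isolate, and every group described here carries the same alleles.

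The encorafenib groups received 0.5 µM encorafenib in fresh medium at day 0, and the day 5 group received it again at day 2 and day 4. The DMSO groups of NaJa-F (3 libraries at each day) received the solvent on the same schedule, and they give the change that came with time in culture without inhibitor. The encorafenib groups of the sister lines NaJa-D and NaJa-G (3 libraries at each day and line) carry the same engineered alleles and were treated in the same way. According to the study's methods, all cells were plated at one time and confluence was checked before harvest. The day 5 cells had therefore also spent longer in culture. No source used here says that the libraries of a group came from separate cultures. The p-values rest on the spread between libraries of a group, estimated over all groups of the series, and this spread may be technical.

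BRAF V600E is a mutant kinase that signals without RAS, and encorafenib occupies its ATP pocket, so that MEK and then ERK lose phosphorylation. Active ERK switches on the genes of its own inhibitors, among them the dual-specificity phosphatases and the Sprouty and SPRED proteins, and BRAF inhibition removes this brake. In colorectal cancer cells the released brake lets the EGFR family reactivate ERK within days, which is why EGFR antibodies are combined with encorafenib. Loss of APC leaves beta-catenin stable, and beta-catenin with TCF and LEF factors keeps WNT target genes on. The question asked of these 5 libraries was which transcripts kept changing between day 1 and day 5 while the inhibitor was present.

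Total counts of the 5 libraries ran from 55393593 to 69837583, within the range of all libraries (46007050 to 80121299), and levels are given as CPM, read counts scaled to the library size after TMM normalization. Changes are log2 ratios of day 5 over day 1 with their standard errors, and a gene was called when its Benjamini-Hochberg adjusted p over all genes was below 0.01 in limma with voom weights. Markers of cell type were then read. The study describes NaJa-F as intermediate between an epithelial-like and a mesenchymal-like line. The mesenchymal genes Vim and Fn1 were expressed as well, and their values are given further below. The cadherin gene Cdh1 had 1052 ± 13.2 CPM (SD, n = 3) at day 1 and 867 ± 18.0 CPM (SD, n = 2) at day 5, and Epcam 461 ± 14.2 and 592 ± 46.7 CPM. The intestinal factor Cdx2 stood at 43.6 ± 1.59 and 56.5 ± 12.5 CPM, while the differentiation marker Vil1, from whose promoter the recombinase was driven, had at most 1.02 ± 0.143 CPM. Of the markers of other cell types, 2 of 9 leukocyte, 2 of 6 endothelial, 6 of 9 fibroblast and 4 of 7 mesothelial genes were in the table. Ptprc, Pecam1 and Cdh5 were not among the tested genes, and Col1a1 reached 3.73 ± 0.303 CPM at most. The mesothelial marker Msln, also a marker of fetal and injured intestine, was the exception at 1143 ± 36.8 and 1012 ± 19.9 CPM.

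Libraries of one group differed from each other in 2 ways that bear on the results. The nuclear RNAs Neat1 and Malat1 and the transcripts Rsrp1 and Leng8, averaged as log2 CPM, stood at 5.48, 5.50 and 5.44 in the encorafenib day 1 libraries and at 7.47 and 7.41 in those of day 5. In DMSO the same mean was 5.72, 5.54 and 7.38 at day 1 and 6.996, 7.01 and 7.22 at day 5, so replicate 3 of DMSO day 1 carried a day 5 value. A model with this mean as a covariate, chosen after the data had been seen, is given beside the genes whose calls it ended. It is also given for Fn1 and Etv5, which it called higher. The 2 encorafenib day 5 libraries also differed from each other. Of 10383 genes compared, 330 (3.18%) differed by at least 0.5 on the log2 scale, against 10 to 29 genes in pairs of encorafenib day 1 libraries. Spearman's rho of that difference (replicate 2 minus 1) with the GC content of the genes was 0.73. Pairs of encorafenib day 1 libraries also followed GC content, with rho -0.13 (2 minus 1), -0.49 (3 minus 1) and -0.40 (3 minus 2). The AP-1 gene Junb, at 88.4 and 198 CPM in day 5 replicates 1 and 2, and Jund, at 51.9 and 146 CPM, were among the genes that differed at day 5.

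Transcripts of the 3 engineered genes were present at both days. Braf (GRCm38, ENSMUSG00000002413, chr6:39603237-39725463) had 36.1, 33.4 and 39.1 CPM at day 1 and 52.5 and 45.2 CPM at day 5, and it rose by 0.43 ± 0.11 (SE) on the log2 scale (limma, adjusted p = 0.00406). Without day 5 replicate 1 that change was 0.30 and no longer called, and with the covariate it was 0.19 (adjusted p = 0.261). Trp53 had 167, 167 and 169 CPM and then 146 and 153 CPM (log2 -0.16, adjusted p = 0.0284), and Apc had 235, 222 and 230.2 and 257 and 209.6 CPM (log2 0.02, adjusted p = 0.885). Neither was called. Counts per gene do not tell the mutant from the wild-type transcripts.

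Between day 1 and day 5 of encorafenib, 3174 of 14107 genes were called (22.5%), 1433 of them higher (10.2%) and 1741 lower (12.3%). A change of at least 1 on the log2 scale was called in 397 genes (2.81%), with 236 higher (1.67%) and 161 lower (1.14%). The median change over all genes was 0.01. The day 5 libraries lay within 0.5 of each other for 3041 of the 3174 called genes, and for 305 of the 397 called by at least 1. Of the 10383 genes averaging at least 2 log2 CPM in these 2 libraries, only 3.18% differed by at least 0.5. Such agreement is therefore not particular to called genes. The libraries of the 2 days did not overlap for any of the 3174 called genes, and they did not overlap for 61.8% of all genes (51.3% in DMSO). In DMSO, 2361 genes were called over the same interval (16.7%), 1372 higher (9.73%) and 989 lower (7.01%), and 197 of them by at least 1 (1.4%). The difference between the arms, tested as an interaction, was called for 830 genes (5.88%), with 131 higher (0.929%) and 699 lower (4.95%) in encorafenib than in DMSO. Among the 699, 377 rose in DMSO, 462 fell in encorafenib and 168 did both.

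The 161 genes that fell by at least 1 included many that stood above DMSO at day 1 of the inhibitor. At day 1, 97 of them were called above DMSO and 24 below, where 17.5% of all genes were called above and 12% below. By day 5, 13 were called above and 88 below, where 9.7% of all genes were called above and 8.5% below. The 236 genes that rose by at least 1 had 12 called above DMSO and 8 below at day 1, and 50 above and 2 below at day 5. Of these 236 genes 66.1% were raised by at least 0.5 in replicate 3 of DMSO day 1, 1 of the 3 control libraries of the day 1 comparison. These comparisons share libraries with the change over time, so the counts are descriptions.

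**Figure D1:**
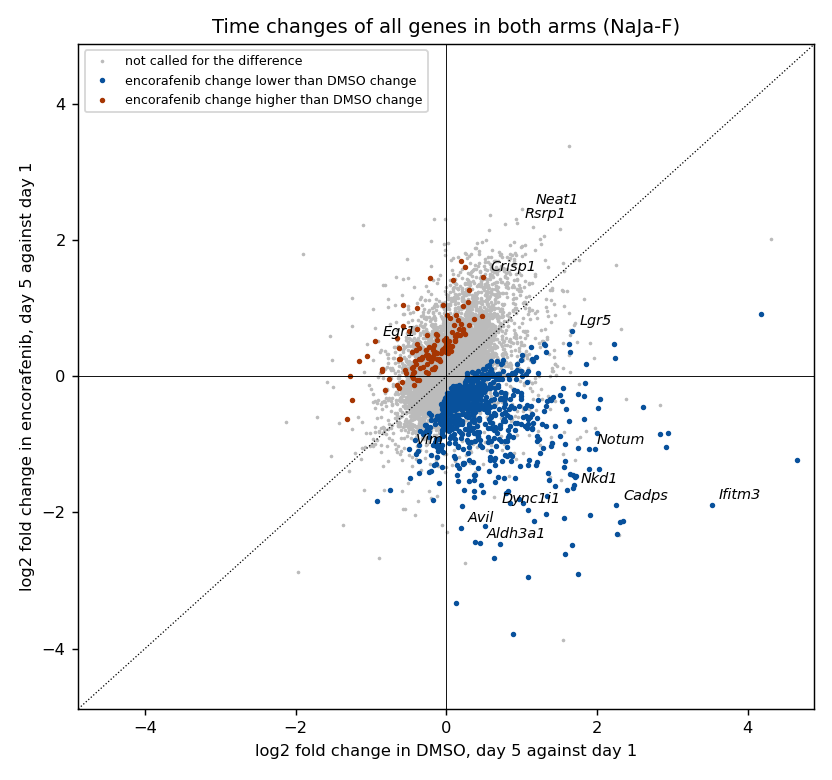
Each point is 1 of 14107 genes, with the log2 fold change from day 1 to day 5 in DMSO on the x axis and in encorafenib on the y axis. Blue points are the 699 genes whose change was lower in encorafenib and red points the 131 whose change was higher (interaction, limma, adjusted p below 0.01). Of the blue points 462 were called lower in encorafenib and 377 higher in DMSO, and Cadps, Dync1i1, Nkd1 and Notum lie at the lower right.

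The 12 steepest falls included genes of aldehyde and retinoid metabolism, secreted proteins and cytoskeletal proteins. Aldh3a1 (ENSMUSG00000019102, chr11:61207537-61218421), an aldehyde dehydrogenase of epithelia, had 70.4, 67.6 and 60.6 CPM in the day 1 libraries and 12.2 and 11.9 CPM at day 5, a log2 change of -2.45 ± 0.09 (SE; adjusted p = 2.37e-17). In DMSO it stood at 23.8, 23.1 and 20.4 CPM at day 1 and 31.9, 30.4 and 29.0 CPM at day 5, so the transcript was above every DMSO library at day 1 of encorafenib and below every one at day 5. Aldh1a2, which makes retinoic acid, went from 18.0, 16.7 and 18.2 to 5.15 and 4.92 CPM (log2 -1.81), while DMSO cells went the other way, from 22.0, 20.5 and 20.3 to 40.5, 41.2 and 40.4 CPM (log2 0.96, adjusted p = 5.01e-10). Ugt2b34, a glucuronosyltransferase gene in a cluster of similar copies whose reads may be split, had 91.3, 91.1 and 86.4 CPM and then 30.6 and 24.5 CPM.

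Avil (ENSMUSG00000025432, chr10:127000709-127020994), an actin-binding protein related to villin and typical of tuft cells, fell from 15.0, 13.1 and 13.5 to 3.01 and 2.89 CPM, by 2.23 on the log2 scale (adjusted p = 2.03e-13). Its DMSO libraries had 12.4, 10.9 and 10.7 CPM at day 1 and 12.5, 12.5 and 13.6 CPM at day 5, so the encorafenib day 5 libraries lay below all others of the line. Smoc2, a secreted calcium-binding protein of the intestinal stem cell signature, was already low at day 1 of encorafenib, with 15.2, 15.2 and 14.5 CPM against 79.1, 72.7 and 69.7 CPM in DMSO. It fell further to 4.42 and 4.33 CPM (log2 -1.77, adjusted p = 2.73e-12), whereas DMSO day 5 had 93.4, 96.7 and 94.5 CPM. The metalloprotease gene Adamts15 went from 17.5, 15.5 and 17.2 to 4.60 and 4.89 CPM, the secretory GTPase gene Rab3b from 17.5, 16.9 and 15.9 to 5.06 and 5.21 CPM, and the actin-binding gene Ablim3 from 18.5, 17.2 and 17.3 to 5.67 and 5.39 CPM. In DMSO at day 5 these 3 had 4.58, 1.57 and 1.41, 7.81, 8.50 and 7.89 and 6.22, 7.01 and 6.28 CPM. At day 5 encorafenib thus lay below DMSO for Rab3b and Ablim3. For Adamts15 the DMSO libraries were uneven, and the one at 4.58 CPM was level with encorafenib while its companions were lower.

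**Figure D2:**
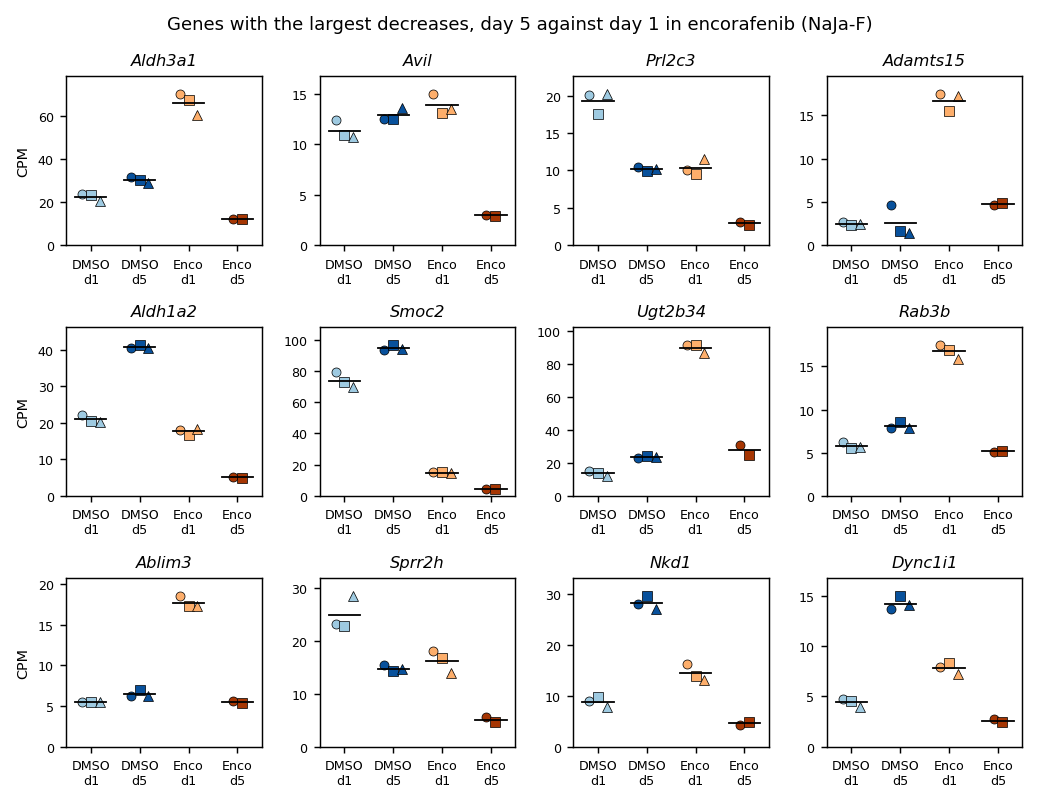
CPM of the 12 genes with the lowest log2 change among called genes of at least 2 log2 CPM on average, in NaJa-F. Points are libraries (circle, square and triangle for replicates 1, 2 and 3) and bars are group means. Both encorafenib day 5 libraries lie below all 3 encorafenib day 1 libraries in every panel, for Aldh3a1 at 12.2 and 11.9 against 60.6 to 70.4 CPM.

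Members of a pair of gene families in this group are counted with uncertainty. Sprr2h, a cornified envelope gene, fell from 18.0, 16.7 and 13.97 to 5.57 and 4.64 CPM, and Prl2c3, a prolactin-family growth factor also known as proliferin, from 10.1, 9.51 and 11.5 to 3.14 and 2.71 CPM. Both have near-identical neighbours, and how the authors assigned reads that match several copies is not given in the sources used here. In DMSO both were lower at day 5 as well, from 20.2, 17.6 and 20.2 to 10.4, 9.89 and 10.2 CPM for Prl2c3 (log2 -0.92, adjusted p = 2.77e-07).

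WNT target genes differed between the arms. Of 14 measured, 8 had a lower change in encorafenib than in DMSO and 1 a higher one (interaction), against 4.95% and 0.929% of all genes. In DMSO 7 rose and none fell (9.73% and 7.01% of all genes), with a median log2 change of 0.28. In encorafenib 2 rose and 4 fell (10.2% and 12.3% of all genes), with a median of 0.07. With replicate 3 of DMSO day 1 left out, 6 differences were called lower and 1 higher. With day 5 replicate 1 left out, 4 rose and 3 fell in encorafenib.

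The 4 that fell in encorafenib were the feedback inhibitors Nkd1 and Notum, the pathway's own factor Lef1, and Tnfrsf19, a receptor of the TNF family. Nkd1 (ENSMUSG00000031661, chr8:88521354-88594884), a Dishevelled-binding inhibitor of WNT signalling, had 16.3, 13.8 and 13.1 CPM at day 1 and 4.26 and 4.90 CPM at day 5 of encorafenib, and 8.87, 9.77 and 7.85 CPM and then 28.1, 29.5 and 27.0 CPM in DMSO. Its change was -1.64 ± 0.16 (SE; adjusted p = 1.26e-08) in encorafenib and 1.68 ± 0.11 (adjusted p = 7.41e-12) in DMSO, and the difference was -3.32 ± 0.19 (adjusted p = 4.74e-13). The groups did not overlap in either arm, and the 2 arms moved in opposite directions.

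Notum, which removes the lipid from WNT ligands, moved in the same directions, with 19.8, 17.0 and 14.3 and 7.83 and 8.21 CPM in encorafenib and 6.69, 6.60 and 6.72 and 25.2, 26.3 and 23.2 CPM in DMSO (difference -2.97 ± 0.23, adjusted p = 1.21e-10). Lef1, a partner of beta-catenin, fell from 1.46, 1.80 and 1.74 to 0.680 and 0.795 CPM in encorafenib and rose from 2.20, 2.11 and 1.81 to 3.23, 3.92 and 3.50 CPM in DMSO. Without day 5 replicate 1 its fall was 1.08 on the log2 scale and no longer called. Tnfrsf19, a receptor of the TNF family known as Troy and a marker of crypt stem cells, went from 11.1, 10.5 and 10.5 to 5.20 and 4.77 CPM (log2 -1.10, adjusted p = 3.81e-07), against 9.42, 9.35 and 7.61 and 12.6, 13.99 and 13.0 CPM in DMSO.

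The other WNT targets did not follow one direction. Lgr5, the R-spondin receptor of crypt stem cells, rose in both arms, from 2.72, 3.06 and 2.51 to 4.35 and 4.42 CPM in encorafenib and from 1.58, 1.63 and 1.65 to 5.55, 4.81 and 5.20 CPM in DMSO, and the rise was smaller in encorafenib by 1.001 (adjusted p = 6.40e-05). Axin2, a common readout of beta-catenin activity, was near level in encorafenib at 203, 191 and 185 and 175 and 204 CPM (log2 -0.03, adjusted p = 0.750) and rose in DMSO by 0.55. Prom1, a membrane protein of crypt progenitors, was level in DMSO (log2 0.00) and rose in encorafenib from 40.5, 39.6 and 38.3 to 76.9 and 71.0 CPM (log2 0.90, adjusted p = 1.45e-09), and the difference from DMSO was 0.90 (adjusted p = 5.08e-07). Sox4 had 52.5 and 119 CPM in the day 5 libraries and was not called.

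Promoter sequence was read for the WNT targets that fell, since TCF and LEF factors bind the letters CTTTGAT, or ATCAAAG on the opposite strand. The windows are the 250 bases before a RefSeq transcript start (GRCm38.p6), written 5′ to 3′ on the strand of the gene, in lower case with any CTTTGAT or ATCAAAG in capitals. Nkd1 had 1 window and Tnfrsf19 had 2, from separate starts. Lef1 had 4 windows, none with these letters, and is not printed, and Notum had no entry.

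Nkd1, chr8:88527383-88527632, + strand: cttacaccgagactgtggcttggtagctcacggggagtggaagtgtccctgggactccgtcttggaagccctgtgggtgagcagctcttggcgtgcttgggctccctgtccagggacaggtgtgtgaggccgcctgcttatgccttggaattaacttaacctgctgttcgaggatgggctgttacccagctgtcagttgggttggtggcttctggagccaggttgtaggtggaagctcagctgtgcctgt
Tnfrsf19, chr14:61046856-61047105, - strand: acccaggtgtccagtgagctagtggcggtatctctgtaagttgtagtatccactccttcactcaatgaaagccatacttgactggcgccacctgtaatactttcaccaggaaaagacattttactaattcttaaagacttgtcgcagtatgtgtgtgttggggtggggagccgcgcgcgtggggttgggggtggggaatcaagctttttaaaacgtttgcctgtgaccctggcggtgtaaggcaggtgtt
Tnfrsf19, second start, chr14:61037988-61038237, - strand: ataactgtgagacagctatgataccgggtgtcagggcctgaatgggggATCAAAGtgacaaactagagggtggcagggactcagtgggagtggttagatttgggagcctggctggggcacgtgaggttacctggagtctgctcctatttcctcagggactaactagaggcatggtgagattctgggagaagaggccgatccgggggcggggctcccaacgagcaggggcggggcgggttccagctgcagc

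The Nkd1 window and the first Tnfrsf19 window held no match, and the second Tnfrsf19 window held 1, on the opposite strand, centred 199 bases before the start. Of 32851 mouse windows of this length, 1053 (3.21%) held CTTTGAT on either strand. Over the list, 10 of 14 WNT target genes had 17 windows, and 2 windows held the letters, those of Sp5 and Tnfrsf19. A match is a description of the sequence and not a bound site.

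Antioxidant and detoxification genes controlled by NRF2 also differed between the arms. Of 12 measured, 6 fell in encorafenib and none rose, against 12.3% and 10.2% of all genes, with a median log2 change of -0.23. In DMSO 4 rose and none fell (9.73% and 7.01% of all genes), and 4 had a lower change in encorafenib than in DMSO. Nqo1, a quinone reductase, fell from 12.5, 12.6 and 11.1 to 4.81 and 3.59 CPM (log2 -1.54 ± 0.12, SE; adjusted p = 2.22e-10), with 6.98, 7.42 and 6.49 and 9.25, 8.47 and 7.92 CPM in DMSO. Gsta4, a glutathione transferase for lipid aldehydes, had 22.7, 22.0 and 21.3 CPM at day 1 and 11.1 and 10.6 CPM at day 5 of encorafenib, while DMSO cells went from 5.47, 5.12 and 4.63 to 13.3, 13.8 and 12.6 CPM. Gstm1 fell by 0.56 in encorafenib and rose by 1.14 in DMSO. The levels of the 3 genes were highest at day 1 of encorafenib or, for Gstm1, close to those of DMSO day 5.

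The falls of Gsr, Srxn1 and G6pdx were small, -0.27, -0.24 and -0.26, and none of the 3 was called with the covariate for the 4 nuclear transcripts. Nqo1, Gsta4 and Gstm1 were still called. Slc7a11, the cystine transporter, was not called in encorafenib at 85.2, 81.6 and 82.5 and 93.2 and 81.7 CPM, and in DMSO it rose from 199, 187 and 159 to 339.7, 345 and 338 CPM. Windows with the core letters TGACNNNGC of the antioxidant response element, searched on both strands, were found for 3 of the 8 genes of the list that had an entry (G6pdx, Gclm and Txnrd1), and in 10.2% of all windows.

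The inhibitors that ERK itself induces also differed between the arms, in the other direction. Of 10 measured, 3 rose and 1 fell in encorafenib (median log2 change 0.20), where 10.2% of all genes rose and 12.3% fell. In DMSO 2 rose and 4 fell (median -0.02), where the shares were 9.73% and 7.01%. The change was higher in encorafenib for 3 of 10 and lower for none, against 0.929% and 4.95% of all genes. At day 1 of encorafenib 8 of the 10 were called below DMSO (12% of all genes), and 4 of the 10 at day 5 (8.5%).

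Dusp6 (ENSMUSG00000019960, chr10:99263231-99267489), the cytoplasmic phosphatase of ERK, had 178, 174 and 175 CPM in DMSO at day 1 and 95.0, 88.7 and 98.4 CPM in encorafenib at day 1. At day 5 it had 151, 139.7 and 145 CPM in DMSO and 122 and 124 CPM in encorafenib. It rose by 0.39 ± 0.08 (SE; adjusted p = 6.30e-04) in encorafenib, fell by 0.28 in DMSO (adjusted p = 0.00643), and the difference was 0.66 ± 0.11 (adjusted p = 9.02e-05). The encorafenib and DMSO levels were thus closer at day 5 than at day 1, and their libraries did not overlap at either day. The rise within encorafenib was not called when either day 5 library was left out, with log2 changes of 0.38 and 0.34.

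Dusp4, the nuclear phosphatase of the family, went past DMSO, from 114, 109.8 and 109 CPM at day 1 to 173 and 204 CPM at day 5, with 135, 132 and 123 and 151, 149 and 145 CPM in DMSO. Its change was 0.76 ± 0.10 (SE; adjusted p = 7.96e-07) and its difference from DMSO 0.57 (adjusted p = 0.00284), which was 0.44 and not called without day 5 replicate 2. Spred3 rose from 9.57, 8.39 and 9.64 to 16.4 and 16.3 CPM (log2 0.84), and with the covariate for nuclear transcripts the value was 0.07. Dusp7 fell in both arms, by 0.34 and 0.44, and was not called in encorafenib with the covariate (-0.19). Spry4 had 4.15, 3.36 and 3.70 and 4.79 and 5.83 CPM in encorafenib (log2 0.51, adjusted p = 0.0219) against 11.9, 11.5 and 11.4 CPM in DMSO at day 1, and Spry2 had 31.3, 28.7 and 30.1 and 25.7 and 27.8 CPM. Neither Sprouty gene was called.

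Among immediate early and AP-1 factors, 1 of 14 rose and 1 fell in encorafenib, below the 10.2% and 12.3% of all genes, and 0 rose and 4 fell in DMSO (9.73% and 7.01% of all genes), with 3 interaction calls, all higher. Egr1, the zinc finger factor that ERK induces within minutes, had 12.4, 12.4 and 11.4 CPM and then 17.5 and 17.0 CPM in encorafenib, and 21.9, 23.4 and 22.7 and then 12.6, 11.8 and 10.9 CPM in DMSO. It fell in DMSO (log2 -0.95) and rose in encorafenib (log2 0.52), with a difference of 1.47 ± 0.15 (SE; adjusted p = 4.30e-08). Fosl1 had 49.0, 47.4 and 47.3 and 45.8 and 59.0 CPM in encorafenib, with no call, and fell in DMSO from 105, 111 and 119 to 87.6, 80.5 and 77.2 CPM. Fosb likewise had 5.34, 4.93 and 5.17 and 4.30 and 5.83 CPM in encorafenib and 12.9, 14.2 and 12.7 and 8.15, 7.37 and 7.97 CPM in DMSO. For Fosl1 and Fosb the difference between arms was called while the change within encorafenib was not. Of the ERK-controlled ETS factors, Etv4 rose from 40.3, 42.2 and 45.5 to 52.4 and 59.5 CPM, below its 87.5, 89.3 and 88.1 CPM in DMSO, and Etv5 stayed at 11.8, 12.3 and 12.6 and 13.6 and 13.3 CPM against 40.1, 41.7 and 38.3 CPM. Without day 5 replicate 2 the change of Etv4 was 0.26 and not called, nor was it called with the covariate (0.31). Etv5 was called higher with the covariate (0.40).

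**Figure D3:**
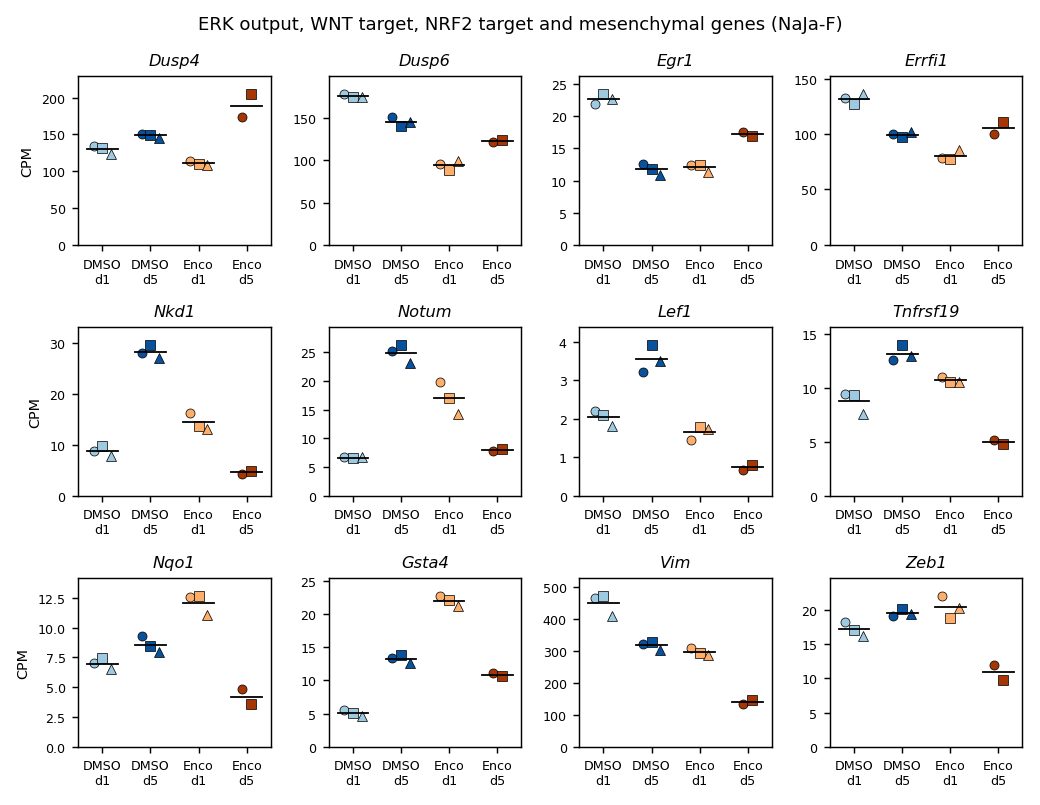
CPM of 4 genes induced by ERK (upper panels), 4 WNT targets (middle panels) and 2 NRF2 targets with 2 mesenchymal genes (lower panels) in the NaJa-F libraries, with symbols by replicate and bars at group means. In the upper panels encorafenib day 5 lies above encorafenib day 1, for Dusp6 at 122 and 124 against 88.7 to 98.4 CPM. In the middle and lower panels encorafenib day 5 is the lowest group except for Notum and Gsta4.

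Of 13 receptors, ligands and inhibitors of the EGFR family, 4 rose and none fell in encorafenib (median log2 change 0.26), against 10.2% and 12.3% of all genes. In DMSO 1 rose and 4 fell (median -0.09), against 9.73% and 7.01%. Erbb3, the receptor that pairs with EGFR and ERBB2 and couples to PI3K, rose from 95.1, 96.5 and 87.5 to 148 and 136 CPM (log2 0.61 ± 0.07, SE; adjusted p = 3.81e-07). It rose in DMSO too, from 84.2, 81.1 and 75.8 to 99.5, 106 and 103 CPM, and the difference of 0.26 was not called (adjusted p = 0.0989). Egfr had 152, 144 and 153 CPM at day 1 and 179 and 158 CPM at day 5 (log2 0.17, adjusted p = 0.0545), and Erbb2 114, 114 and 105 and 109.6 and 116 CPM.

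Of the ligands, Btc rose from 13.7, 14.1 and 14.3 to 19.9 and 18.2 CPM and Ereg from 33.0, 31.3 and 36.2 to 43.2 and 37.8 CPM (log2 0.27, adjusted p = 0.00305, and 0.15 with no call without day 5 replicate 1, and no call with the covariate at 0.26). Areg, a ligand induced by ERK, had 41.9, 43.0 and 48.0 CPM in DMSO and 15.4, 16.8 and 18.7 CPM in encorafenib at day 1, and 30.3, 28.6 and 28.1 CPM and 20.01 and 20.5 CPM at day 5. Its change in encorafenib was not called (log2 0.26, adjusted p = 0.0721), and the difference between arms was 0.87 ± 0.15 (SE; adjusted p = 9.49e-05). Errfi1, the intracellular inhibitor of EGFR family kinases known as MIG6, rose from 78.5, 77.5 and 85.9 to 99.8 and 110.4 CPM and fell in DMSO from 133, 127 and 136 to 100.3, 96.9 and 102 CPM (difference 0.79, adjusted p = 6.76e-08). For Areg, Ereg, Errfi1 and Hbegf the interaction was called, and for each of them DMSO fell.

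Other receptor kinases and their partners were mixed, with 4 of 18 higher and 3 lower in encorafenib (10.2% and 12.3% of all genes). Axl, a receptor linked to drug tolerance, fell from 663, 630.2 and 616 to 388 and 380.3 CPM (log2 -0.73, adjusted p = 7.98e-06), while its ligand Gas6 rose from 54.5, 53.8 and 53.01 to 73.2 and 81.9 CPM (log2 0.53). Insr and the adaptor Irs2 rose by 0.46 and 0.56, and in DMSO by 0.38 and 0.56. In the RAS to ERK core 4 of 17 genes rose and 2 fell, the 4 being Braf, Sos2 and the RAS inhibitors Nf1 (log2 0.54) and Rasa1 (0.29). Mapk3, which encodes ERK1, fell from 212, 209 and 197 to 155 and 161 CPM (log2 -0.38, and -0.15 with no call under the covariate; difference from DMSO -0.49, adjusted p = 0.00616).

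Among 17 mesenchymal genes 7 fell in encorafenib and none rose (12.3% and 10.2% of all genes), with a median log2 change of -0.18. The change was lower than in DMSO for 5 and higher for 1 (4.95% and 0.929% of all genes). Without day 5 replicate 1, 4 fell, and without replicate 2, 5 fell. Vim (ENSMUSG00000026728, chr2:13573927-13582826), the intermediate filament of mesenchymal cells, had 310.0, 292 and 286 CPM at day 1 and 135 and 148 CPM at day 5 (log2 -1.07 ± 0.10, SE; adjusted p = 1.31e-08), and it fell in DMSO from 466, 472 and 409 to 323, 327 and 304 CPM. The difference between the arms (-0.57, adjusted p = 0.00795) was not called under edgeR.

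Zeb1, a repressor of epithelial genes, went from 22.0, 18.8 and 20.3 to 12.01 and 9.76 CPM in encorafenib and from 18.2, 17.0 and 16.2 to 19.1, 20.1 and 19.4 CPM in DMSO, where it was not called (difference -1.10 ± 0.11, SE; adjusted p = 2.94e-08). Its relative Zeb2 had 23.05, 21.3 and 22.6 and 20.3 and 19.0 CPM. S100a4, Tpm2 and Acta2 fell at low levels, S100a4 from 2.35, 1.66 and 1.79 to 0.425 and 0.795 CPM. Fn1, which encodes fibronectin, had 9114, 8493 and 8971 CPM at day 1 and 10538 and 10107 CPM at day 5 and was not called, while it fell in DMSO (log2 -0.42). With the covariate its change in encorafenib was 0.36 and called higher (limma, adjusted p = 0.00530). The matrix list had 9 of 32 genes lower and 5 higher (12.3% and 10.2% of all genes). Col6a1 fell from 16.3, 15.1 and 14.3 to 6.22 and 6.64 CPM and Lamb3 from 653, 618 and 596 to 371 and 402 CPM, and Col12a1 rose from 15.9, 13.3 and 14.6 to 29.2 and 24.0 CPM. Timp3, an inhibitor of metalloproteases, fell from 84.6, 75.6 and 82.9 to 30.9 and 29.9 CPM (log2 -1.41, adjusted p = 3.41e-11), back to its DMSO level of 31.1, 30.8 and 29.8 CPM.

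The ligand gene Tgfb2 fell from 31.0, 29.3 and 29.8 to 15.8 and 15.3 CPM in encorafenib and rose from 5.66, 5.60 and 4.34 to 8.61, 8.89 and 7.95 CPM in DMSO (difference -1.67, adjusted p = 4.53e-09). The epithelial list did not mirror the mesenchymal one, with 3 of 18 higher and 6 lower (10.2% and 12.3% of all genes). Epcam and the splicing and transcription factors Esrp1 and Grhl2 rose by 0.36, 0.21 and 0.32, while the keratins Krt7, Krt8, Krt18 and Krt19 fell by 0.44, 0.73, 0.50 and 0.64. With the covariate Esrp1 (0.10), Krt7 (-0.26), Krt18 (-0.22) and Krt19 (-0.33) were not called, and Krt8 had -0.39. Among intestinal genes Cdx2 rose by 0.36 and Hnf4a fell from 2.15, 2.09 and 1.74 to 0.747 and 0.795 CPM. The cadherin Cdh17 fell from 28.0, 26.9 and 27.5 to 16.8 and 17.0 CPM, having stood at 111, 111 and 102 CPM in DMSO at day 1.

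Growth-related lists held falls in both arms, where 12.3% of all genes fell in encorafenib and 7.01% in DMSO. Of 22 MYC targets and ribosome biogenesis genes, 11 fell in encorafenib (median -0.23) and 14 in DMSO (median -0.25), and none rose in either. Of 23 S phase genes 9 fell in encorafenib and 5 in DMSO, and of 78 ribosomal protein genes 17 and 12. Respiratory chain subunits fell more widely in encorafenib, 44 of 79 (median -0.28) against 8 of 79 in DMSO (median -0.18). No gene of the 3 lists of MYC targets, ribosomal proteins and respiratory chain subunits had a called interaction, so a difference between the arms was not shown for any of them.

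Myc itself had 174, 170.5 and 173 CPM at day 1 and 169 and 209 CPM at day 5 and was not called (log2 0.12, adjusted p = 0.263). Bop1, needed for the large ribosomal subunit, fell by 0.52 and Srm, the spermidine synthase, by 0.46 (-0.23 and not called with the covariate). E2f1 fell from 83.9, 86.7 and 88.1 to 59.0 and 65.1 CPM. Mitotic genes were close to level, with 2 of 20 higher and 1 lower (10.2% and 12.3% of all genes), and Mki67 had 597, 600.0 and 604 and 813 and 669.9 CPM with no call. Ccnd1, a cyclin induced through ERK, fell from 678, 667 and 675 to 488 and 526 CPM (log2 -0.41, and -0.12 with no call under the covariate), and Ccnd2 from 59.8, 52.8 and 61.7 to 31.7 and 33.0 CPM (difference from DMSO -1.25, adjusted p = 1.32e-08). The CDK inhibitor Cdkn1b rose by 0.51 and Cdkn2a fell by 0.52, and with the covariate neither was called (0.03 and -0.21).

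Changes in encorafenib correlated with exonic length (Spearman's rho 0.22 across the 14064 genes with a value) and GC content (rho -0.19), as they did in DMSO (0.27 and -0.20). With the covariate for the 4 nuclear transcripts the falls called were 1 of 22 MYC targets and ribosome biogenesis genes, 1 of 23 S phase genes, 0 of 78 ribosomal proteins and 4 of 79 respiratory chain subunits. Within the encorafenib arm of NaJa-F the covariate and the day cannot be told apart, since both day 5 libraries lay above all 3 day 1 libraries.

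Of 24 genes of cholesterol synthesis and uptake 5 rose and none fell in encorafenib (median 0.15; 10.2% and 12.3% of all genes), and 11 rose in DMSO (median 0.25; 9.73% of all genes), with no interaction call. Insig1, the sterol sensor that holds SREBP in the endoplasmic reticulum, rose from 145, 160.4 and 151 to 277 and 294 CPM (log2 0.91 ± 0.07, SE; adjusted p = 4.55e-10) and in DMSO from 173, 167 and 165 to 263, 262 and 265 CPM. Scd2 and Elovl6 of the fatty acid list rose by 0.48 and 0.47. Without day 5 replicate 1, 1 gene of the cholesterol list was called higher.

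Of 14 BCL2 family genes 4 rose and 1 fell (10.2% and 12.3% of all genes). Bcl2l11, which encodes BIM, a killer protein that ERK marks for destruction, rose from 29.4, 29.4 and 27.5 to 45.1 and 48.8 CPM (log2 0.71, adjusted p = 4.34e-07), and in DMSO from 29.7, 28.5 and 29.0 to 42.8, 41.4 and 41.8 CPM. Mcl1, a guardian against BIM, rose by 0.22, Bmf by 0.68 and Bik by 0.74, and Bak1 fell by 0.54. Bmf and Bik encode killer proteins as BIM does, and with the covariate Bmf (0.44), Bik (0.88) and Bak1 (-0.19) were not called. The changes of Bcl2l11 and Mcl1 did not differ from DMSO by the test (differences 0.18 and 0.05, adjusted p = 0.376 and 0.615). Vegfa rose from 65.4, 66.5 and 66.3 to 112 and 126 CPM (log2 0.85), to the level of DMSO day 5 at 119.6, 123 and 123 CPM, and Trp53inp1, a p53 target and autophagy factor, from 18.5, 18.0 and 15.8 to 37.1 and 30.7 CPM. The p53 target Gdf15, a stress cytokine, was called higher at 13.8, 12.9 and 12.6 and then 18.2 and 37.8 CPM, with its day 5 libraries far apart.

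Of 18 interferon response genes 4 rose and 1 fell (10.2% and 12.3% of all genes). Oasl2 rose from 0.774, 1.00 and 0.749 to 1.75 and 1.64 CPM (0.53 on the log2 scale and not called with the covariate) and Bst2 from 9.01, 10.9 and 9.86 to 14.05 and 14.7 CPM. Ifitm3 had 4.09, 4.05 and 4.91 CPM in DMSO at day 5 and below 1 CPM in the other groups, with 0.975, 0.765 and 0.706 CPM and then 0.102 and 0.422 CPM in encorafenib. B2m rose from 111, 114 and 107 to 144 and 141 CPM, and H2-Q4, a class I gene with close copies, from 3.28, 3.75 and 3.26 to 7.19 and 6.98 CPM. Cd274, which encodes PD-L1, rose from 3.10, 3.10 and 2.33 to 4.94 and 4.25 CPM (log2 0.70, and 0.46 with no call under the covariate), and Pdcd1lg2, which encodes PD-L2, fell from 0.960, 0.824 and 1.01 to 0.527 and 0.292 CPM against 4.60, 3.58 and 5.04 CPM in DMSO. The chemokine Cxcl1 rose by 0.78 and the alarmin Il33 fell by 0.66, and with the covariate neither was called (0.18 and -0.39). Spp1, the secreted phosphoprotein osteopontin, rose from 55.1, 54.4 and 52.5 to 83.3 and 72.8 CPM.

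Outside these lists, the genes with the widest differences between the arms included Cadps, Dync1i1, Dgkk, Tnc and Clca3a1. Cadps, which primes vesicles for release, fell from 5.79, 5.25 and 4.73 to 1.56 and 1.27 CPM in encorafenib and rose from 2.49, 2.97 and 2.69 to 13.1, 13.3 and 12.5 CPM in DMSO (difference -4.14 ± 0.19, SE; adjusted p = 8.45e-15), the lowest of the genes that met the naming rule. Dync1i1, a dynein intermediate chain, had 7.86, 8.31 and 7.18 and 2.74 and 2.42 CPM in encorafenib and 4.73, 4.54 and 3.95 and 13.6, 15.0 and 14.02 CPM in DMSO. Both genes crossed over, from above DMSO at day 1 to below it at day 5.

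In the other direction, Dgkk, a diacylglycerol kinase, rose from 104, 107 and 113 to 171 and 148 CPM in encorafenib and fell from 59.5, 58.5 and 54.9 to 37.7, 35.0 and 37.4 CPM in DMSO (difference 1.21, adjusted p = 4.80e-08). Tnc, which encodes the matrix protein tenascin-C, rose from 18.0, 15.3 and 17.7 to 23.2 and 22.3 CPM and fell in DMSO from 34.4, 32.6 and 28.3 to 19.8, 20.9 and 20.8 CPM. The chloride channel regulator gene Clca3a1 had 23.2 and 19.8 CPM at day 5 of encorafenib against 8.10, 7.92 and 8.06 CPM at day 1, and in DMSO at day 1 it had 10.4, 9.65 and 18.4 CPM, with replicate 3 above its companions. Without that library its difference from DMSO was 1.02 and not called, and with the covariate its change in encorafenib was 0.46 and not called.

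**Figure D4:**
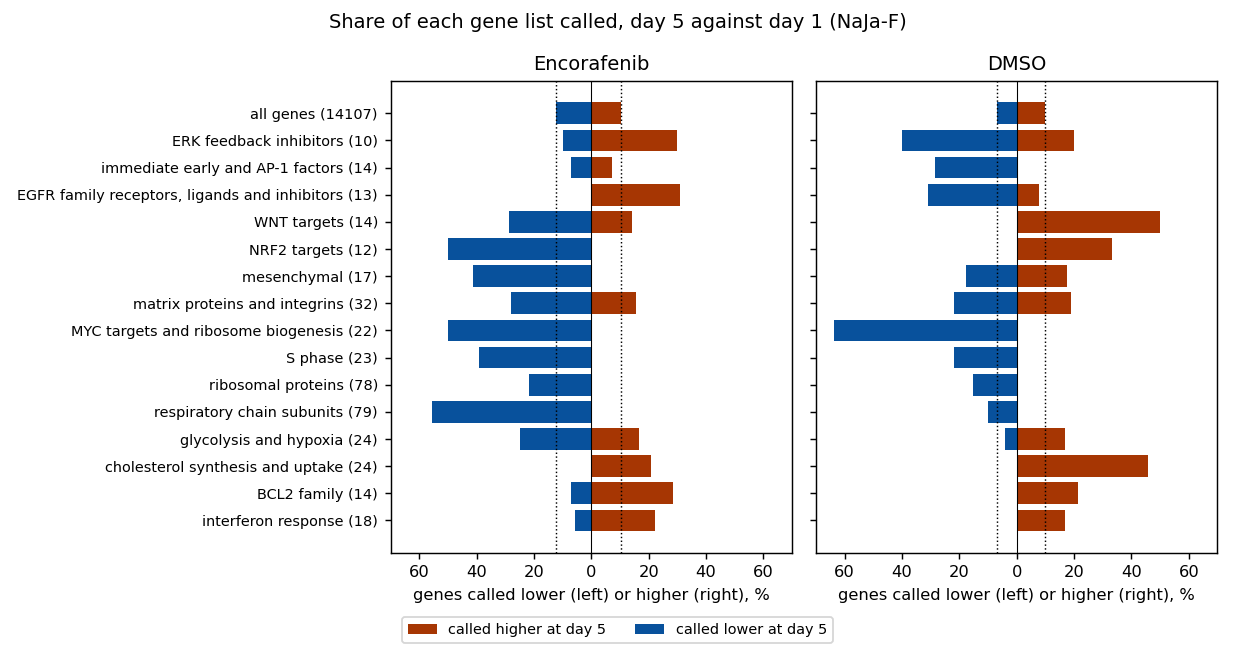
Share of the genes of each list called higher (red, to the right) or lower (blue, to the left) at day 5 than at day 1, in encorafenib and in DMSO, with the number of genes tested in brackets and dotted lines at the shares of all genes (10.2% and 12.3% in encorafenib, 9.73% and 7.01% in DMSO). NRF2 targets have only a left bar in encorafenib and only a right bar in DMSO, WNT targets have bars on both sides in encorafenib (4 of 14 lower and 2 higher), and MYC targets have only left bars in both.

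The 12 steepest rises included 2 nuclear noncoding RNAs. Neat1, a long noncoding RNA that builds nuclear paraspeckles, had 34.2, 36.0 and 36.3 CPM at day 1 and 189 and 202 CPM at day 5 of encorafenib, a log2 change of 2.46 ± 0.65 (SE; adjusted p = 0.00452). In DMSO it had 44.4, 37.3 and 185 CPM at day 1 and 133, 139 and 161 CPM at day 5. Replicate 3 of DMSO day 1 thus held a level that its 2 companions did not. Malat1, the noncoding RNA of nuclear speckles, had 114, 126 and 103 and 442 and 258 CPM, and Rsrp1, which encodes a serine-arginine rich protein, 21.7, 20.9 and 20.7 and 94.7 and 106 CPM. Atg9b, Ints6l and Leng8 had the same outline. 1600020E01Rik, also among the 12, is annotated as an antisense RNA, and without knowledge of strand its reads cannot be told from those of the gene opposite.

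Of the 236 genes that rose by at least 1, 156 (66.1%) were higher by at least 0.5 in replicate 3 of DMSO day 1 than the mean of its companions, against 9.02% of all genes and 4.97% of the 161 that fell by at least 1. Across 14107 genes, the offset of that library correlated with the change in encorafenib (Pearson's r 0.518, Spearman's rho 0.465). The library takes no part in that change. With the covariate for the 4 nuclear transcripts, 36 of the 236 were still called higher (median change 0.59 instead of 1.34), and 145 of the 161 were still called lower (median -1.22 instead of -1.31). Neat1 then had a change of -0.01. What set this property of the libraries was not tested.

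Of the 12 steepest rises, 4 of which make up the covariate, Crisp1 and Rasa4 kept their calls with the covariate. Crisp1, which encodes a cysteine-rich secretory protein of the epididymis, rose from 4.52, 4.56 and 4.63 to 13.8 and 11.6 CPM (log2 1.47 ± 0.11, SE; adjusted p = 6.76e-11, and 1.499 with the covariate), with 3.74, 3.86 and 3.37 and 5.05, 5.55 and 4.74 CPM in DMSO. Its difference from DMSO was called (0.98, adjusted p = 7.0e-05), but not with the covariate (0.997, limma, adjusted p = 0.0284). Rasa4, a RAS GTPase-activating protein, rose from 4.44, 4.05 and 3.70 to 11.1 and 13.1 CPM (log2 1.58, and 0.90 with the covariate). Sp110, an interferon-inducible nuclear body gene, had 6.19, 4.09 and 7.02 and 16.5 and 15.5 CPM and lost its call with the covariate (0.71).

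**Figure D5:**
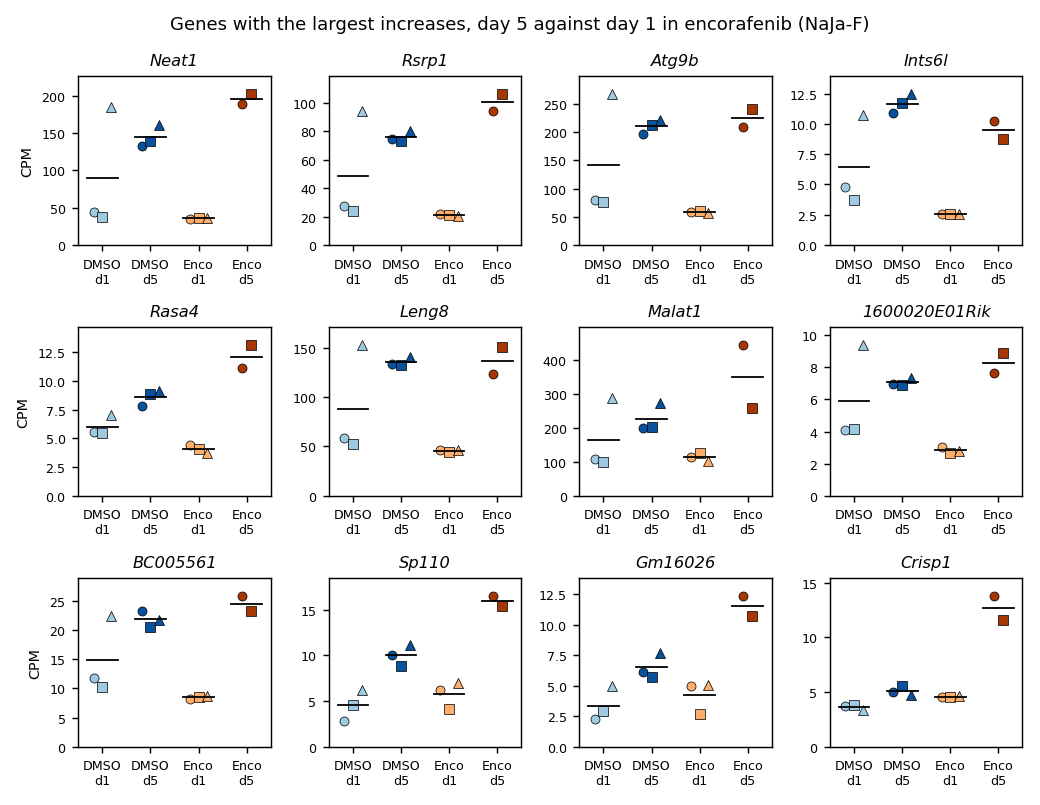
CPM of the 12 genes with the highest log2 change among called genes of at least 2 log2 CPM on average, in NaJa-F, with symbols by replicate and bars at group means. For Neat1, Rsrp1, Atg9b, Ints6l, Leng8, Malat1, 1600020E01Rik and BC005561 the triangle of DMSO day 1 (replicate 3) lies far above its companions, for Neat1 at 185 against 44.4 and 37.3 CPM, and for Crisp1 it does not.

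Genes that answered encorafenib at day 1 in both sister lines were chosen on libraries that take no part in the NaJa-F values, as those called against DMSO by at least 1 on the log2 scale in both lines. In NaJa-D 5.73% of all genes were so called higher and 2.08% lower, and in NaJa-G 12.6% and 7.82%. For 1 DMSO day 1 library the title (NaJa-D) and the stated cell line (NaJa-G) disagree, and the title was used. Of 562 such genes that were higher in NaJa-D and NaJa-G at day 1, 133 had a lower change in encorafenib than in DMSO in NaJa-F and 2 a higher one (4.95% and 0.929% of all genes). Of these 562, 117 fell (20.8%) and 73 rose (13%) in encorafenib, against 12.3% and 10.2% of all genes. In DMSO 159 rose (28.3%) and 4 fell (0.712%), with a median of 0.32, against 9.73% and 7.01% of all genes. Of 189 genes that were lower with encorafenib in the sister lines, 14 had a higher and 11 a lower change than in DMSO. In encorafenib 14 of them rose (7.41%) and 25 fell (13.2%), with a median of 0.02, which is close to the shares of all genes. In DMSO 19 rose (10.1%) and 46 fell (24.3%).

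The time course in encorafenib was then set against those of NaJa-G and NaJa-D, which share no library with it. In NaJa-G 5779 genes were called (41%), 20.6% higher and 20.4% lower, and of the 1433 NaJa-F genes that rose 867 rose there (60.5%, or 29.9% of the NaJa-G rises) and 43 fell. Of the 1741 NaJa-F genes that fell, 1067 fell in NaJa-G (61.3%, or 37.1% of the NaJa-G falls) and 95 rose. In NaJa-D 3772 genes were called (26.7%), 12.5% higher and 14.2% lower, and of the 1433 genes 291 rose there (20.3%) and 160 fell, and of the 1741 genes 426 fell there (24.5%) and 122 rose. Across all 14107 genes, Pearson's r of the changes was 0.577 with NaJa-G and 0.098 with NaJa-D. The mean of the 4 nuclear transcripts went from 5.73, 6.81 and 5.76 to 6.86, 7.18 and 7.06 in NaJa-G encorafenib, upward as in NaJa-F, and its part in this likeness was not tested. In NaJa-D, encorafenib day 1 replicates 1 and 2 had nuclear transcript means of 8.36 and 8.38 and replicate 3 had 6.18, so the day 1 group of that comparison was itself uneven.

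The change differed from that of NaJa-D for 3375 genes (23.9%, with 12.2% higher and 11.7% lower) and from that of NaJa-G for 1569 (11.1%, with 3.92% higher and 7.2% lower). Against NaJa-G, Prdm1, a transcriptional repressor active in immature gut epithelium, changed by 1.13 in NaJa-F and -1.41 in NaJa-G (difference 2.54 ± 0.15, SE; adjusted p = 2.42e-12). Acta2, smooth muscle actin, changed by -1.31 and 0.98 (difference -2.30, adjusted p = 1.88e-07), at 2.34, 2.33 and 2.97 and then 1.04 and 0.990 CPM in NaJa-F. The changes of Galnt14, a glycosyltransferase gene, and Itih5, which encodes a hyaluronan-binding protein, were also lower in NaJa-F, with differences of -2.33 and -2.83. Against NaJa-D, Slc17a9, the vesicular ATP transporter, had a higher change by 2.18 (adjusted p = 8.89e-04), and the serpin gene Serpinb1a a lower one by 2.01. The count against NaJa-D was 5127 when replicate 3 of NaJa-D encorafenib day 1 was left out, and 1943 when replicate 1 of NaJa-F encorafenib day 5 was.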

How the data were processed

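RNA sequencing of NaJa-D, NaJa-F and NaJa-G cells under 0.5 µM encorafenib or DMSO gave 34 libraries in 12 groups. The authors deposited a table of raw counts, whose rows had all passed 1 CPM in 2 or more libraries (14107 genes, smallest summed count 360). Trimmomatic 0.39, STAR 2.5.2b and GRCm38 are named in the submitters' processing notes. How reads were assigned to genes, with which annotation and whether by strand, is not given in the sources used here, so near-identical copies and antisense genes are uncertain. GENCODE M21 supplied symbols for 14064 identifiers and none for 43.

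All libraries entered a single limma 3.58.1 fit (R 4.3.3) of 12 group means, with voom weights, TMM factors from edgeR 4.0.16 and 22 residual degrees of freedom. The contrasts were day 5 minus day 1 in encorafenib and in DMSO, the difference of both, and differences between lines. Tests were two-sided and a gene was called at an adjusted p (Benjamini-Hochberg, every gene tested) below 0.01. Replicate encorafenib libraries of NaJa-F varied 7.90 to 47.6 times more than counting noise. This ratio is a mean over genes with more than 50 counts in a pair of libraries. Genes with few counts were not examined apart, and counting noise may matter more for them.

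Members, gene lists and comparisons were chosen with earlier results of these data known, and list counts are descriptions. Genes were named if they belonged to a list, were Braf, Trp53 or Apc, or ranked at an end among called genes averaging at least 2 log2 CPM. In encorafenib these were the 12 highest and 12 lowest, with no overlap between days also required. For the difference from DMSO the 6 at each end were taken, and for each line difference the 4 at each end.

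Other settings tried were edgeR quasi-likelihood tests, DESeq2 1.42.0, limma-trend, RLE or plain library-size scaling, filterByExpr, fits restricted to NaJa-F or to the groups compared, a replicate block, other thresholds (0.05, or a log2 change of 1) and omission of each library. A covariate (the mean log2 CPM of Neat1, Malat1, Rsrp1 and Leng8) and a GC correction were added after seeing the data. Scripts were tested on simulated data. Some list members are not reported here. Promoter windows are RefSeq's (GRCm38.p6).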

Additional observations from a re-analysis of the deposited data

Results flagged for a closer look

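The change over time differed between encorafenib and DMSO in NaJa-F for 830 genes, between NaJa-F and NaJa-D in encorafenib for 3375 genes and between NaJa-F and NaJa-G for 1569 genes, each by a test of the difference itself (limma, adjusted p below 0.01).

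Differences of log2 change in encorafenib minus log2 change in DMSO are given for the genes named by the rule or in the lists. Among the highest were Egr1 (1.47), Gdf15 (1.40), Clca3a1 (1.33), Dgkk (1.21), Tnc (1.048) and Crisp1 (0.98, not called with the covariate for nuclear transcripts). Genes of the ERK and EGFR lists with a higher change were Areg (0.87), Errfi1 (0.79), Fosb (0.72), Dusp6 (0.66), Ereg (0.60), Dusp4 (0.57), Fosl1 (0.57), Dusp5 (0.53) and Hbegf (0.45). Other genes with a higher change were Prom1 (0.90), Spp1 (0.66), Fn1 (0.64), Jag1 (0.56), Vegfa (0.48) and Gas6 (0.42).

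Among the lowest were Cadps (-4.14), Nkd1 (-3.32), Dync1i1 (-3.29), Notum (-2.97), Aldh3a1 (-2.89) and Sprr2a3 (-2.89). WNT targets with a lower change were, besides Nkd1 and Notum, Lef1 (-1.97), Tnfrsf19 (-1.70), Lgr5 (-1.001), Axin2 (-0.58), Rnf43 (-0.41) and Tcf7 (-0.39). NRF2 targets with a lower change were Gsta4 (-2.41), Nqo1 (-1.83), Gstm1 (-1.70) and Slc7a11 (-0.84). Mesenchymal, matrix and TGF-beta genes with a lower change were S100a4 (-2.05), Col6a1 (-1.97), Tgfb2 (-1.67), Sparc (-1.49), Timp3 (-1.18), Zeb1 (-1.10), Itgb5 (-0.74) and Vim (-0.57). Hnf4a (-1.51), Ccnd2 (-1.25) and Lgals9 (-0.68) also had a lower change.

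Relative to NaJa-D, the change in NaJa-F was higher for Gm42664 (2.82), Prl2c3 (2.45), Slc17a9 (2.18) and Zan (2.04) and lower for Cd200r3 (-2.26), Cxcl15 (-2.04), Serpinb1a (-2.01) and Klhl30 (-1.91). Relative to NaJa-G, it was higher for Sprr2h (2.94), Prdm1 (2.54), Tesc (2.30) and Trbc1 (2.10) and lower for Itih5 (-2.83), Clca3b (-2.52), Galnt14 (-2.33) and Acta2 (-2.30). Prl2c3 and Sprr2h fell in NaJa-F and fell further in the line compared. No group had enough libraries for a test of single outlying libraries.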

How the results depend on the processing

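Counts of called genes (change in encorafenib, change in DMSO, their difference, difference from NaJa-D, difference from NaJa-G, in that order) were 3174, 2361, 830, 3375 and 1569. An adjusted p below 0.05 gave 5394, 4053, 1414, 5486 and 2625, and a log2 change of at least 1 gave 397, 197, 286, 560 and 348. The covariate for nuclear transcripts gave 1520, 2822, 1091, 2069 and 2560, and fitting only the groups compared gave 1557 for the difference from NaJa-D. Leaving out 1 library gave 1673 (without NaJa-F encorafenib day 5 replicate 1) to 2553, 1462 (without DMSO day 1 replicate 2; 1572 without DMSO day 5 replicate 3) to 1944, 577 to 794, 1943 (without NaJa-F encorafenib day 5 replicate 1) to 5127 (without NaJa-D encorafenib day 1 replicate 3), and 1145 to 1525. Under edgeR, DESeq2, limma-trend, RLE scaling, filterByExpr and the GC correction all 5 counts were within 1.5 times the first values. Scaling by library size alone gave 69.7% higher genes among the calls in encorafenib against 45.1%, and 78.6% against 58.1% in DMSO, with the median of all genes at 0.11 in encorafenib. A log2 change in encorafenib changed sign with library size alone for Axin2 (0.074), Fosb (0.068) and Tcf7 (0.10); with the GC correction for Apc (-0.043), Axin2 (0.041), Fosb (0.039), Slc7a11 (-0.040) and Tcf7 (0.052); with NaJa-F alone for Tcf7 (0.00090); and with the covariate for Atg9b (-0.13), Dusp5 (0.049), Fosb (0.15), Leng8 (-0.11), Neat1 (-0.015), Spry2 (0.093), Tcf7 (0.15) and Tgfa (0.0016). With 1 library left out, ranges crossed 0 for Apc (-0.15 to 0.13), Axin2 (-0.17 to 0.055), Fosb (-0.29 to 0.15), Fosl1 (-0.10 to 0.28), Junb (-0.44 to 0.73), Jund (-0.62 to 0.89), Slc7a11 (-0.050 to 0.13), Sox4 (-0.014 to 1.17) and Tcf7 (-0.093 to 0.027). Of these, Atg9b, Leng8 and Neat1 had been called, and the covariate contains Leng8 and Neat1. The cause of the other changes was not tested. The 2 groups of the encorafenib arm share 2 replicate numbers, whose deviations correlated at -0.33 and -0.05. The 2 day 5 libraries deviate from their mean in mirror image, so these values cannot tell whether the numbers pair the libraries. With the replicate number as a block the counts were 3240, 2254, 776, 3273 and 1362, and the differences from DMSO of Fosl1 and Hbegf were not called. With 2 libraries at day 5, small differences may have gone uncalled, and the spread used in the tests was estimated over all groups.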

Other observations

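The counts below are read against 10.2% of all genes higher and 12.3% lower in encorafenib, and 9.73% and 7.01% in DMSO, and several are close to these shares. Of 24 glycolysis and hypoxia genes 4 rose and 6 fell. The 6 that fell were glycolytic enzymes (Hk1, Gpi1, Gapdh, Pgk1, Eno1 and Pkm), with Pkm, the pyruvate kinase, at 3566, 3594 and 3464 CPM at day 1 and 2394 and 2536 CPM at day 5, and none of them was called with the covariate for nuclear transcripts. The 4 that rose included Pdk1 (log2 0.60) and Bnip3 (0.56), both targets of HIF-1, which rose in DMSO as well (0.42 and 0.79).

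Of 24 ATF4 and unfolded protein response genes 2 rose and 2 fell in encorafenib, while 3 rose and 9 fell in DMSO. Phgdh, the first enzyme of serine synthesis, fell in both arms, by 0.43 and 0.58 (not called in encorafenib with the covariate, -0.08), and stood at 331 and 363 CPM at day 5 of encorafenib against 906, 952 and 794 CPM in DMSO at day 1. Of 21 lysosome and autophagy genes 3 rose and none fell, Neu1 from 119.8, 124 and 111 to 166 and 179 CPM. Of 13 YAP targets and fetal intestinal markers 1 rose and 3 fell, with Ccn2 at 869.7, 841 and 905 and 1135 and 1048 CPM and Ccn1 at 764, 719.7 and 785 and 482 and 518 CPM. Of 12 Notch pathway genes 2 rose and 1 fell, and Jag1, a Notch ligand, rose from 81.5, 80.0 and 87.7 to 119.6 and 120.1 CPM. Of 14 p53 targets 3 rose and 3 fell.

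Igf2, a growth factor, fell from 7.59, 7.76 and 6.31 to 4.14 and 4.35 CPM (not called with the covariate, -0.42), with 3.67, 2.70 and 2.06 and 3.18, 3.59 and 3.39 CPM in DMSO (difference -1.09, adjusted p = 0.00130). Hes6, a HES family factor that antagonizes Hes1, fell from 43.3, 43.6 and 37.4 to 26.6 and 33.0 CPM in encorafenib and rose from 28.8, 29.5 and 29.4 to 53.3, 52.8 and 50.6 CPM in DMSO (difference -1.31, adjusted p = 2.81e-06).

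Of 10 genes of a MAPK activity score 3 rose and 2 fell in encorafenib, and 1 rose and 5 fell in DMSO. Of 15 regulators of G1 phase 3 rose and 4 fell, of 16 TGF-beta and BMP genes 2 rose and 4 fell, of 17 matrix proteases and inhibitors 1 rose and 4 fell, of 14 class I and antigen loading genes 2 rose and 1 fell, and of 16 chemokines and secreted factors 3 rose and 2 fell.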
